A study of Mus musculus with 8 samples.

Results

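The genes described here are 10 immediate early genes other than the AP-1 genes: Egr1, Egr2, Egr3, Ier2, Ier3, Nr4a1, Dusp1, Zfp36, Btg2 and Klf6. They were chosen by symbol and matched to the second column of the deposited table, which lists 25697 probes with 18120 gene symbols. Of the 10 genes, 9 had a row, with 1 probe each, 6 were tested, and 4 were detected on all 8 arrays. Klf6 had no row under that symbol. Its former symbol Copeb, a synonym of no other gene in the gene table used here, had 2 probes, whose values are given beside those of the members but are not counted with them.

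The study compared glomeruli of Cd151-/- and Cd151+/+ mice to describe gene expression early in a glomerular disease, CD151 being a tetraspanin that binds laminin-binding integrins in the podocyte. Both groups were males of the FVB/N strain, 3 weeks old, with no treatment named in the labels, 4 mice per genotype and 1 mouse per Illumina MouseRef-8 v1.1 array. The Cd151-/- mice lack the gene in all tissues, and the glomeruli of both groups were isolated by perfusing magnetic beads through the heart and digesting the minced kidneys with collagenase before RNA was extracted, so that each array holds RNA from several glomerular cell types and from any tubule carried along. The 3 probes of Cd151 were detected in 4 of 4 Cd151+/+ mice and in 0 of 4 Cd151-/- mice, with limma adjusted p-values of 2.89e-08, 6.51e-10 and 2.97e-07. Nothing in the labels says whether mice shared a litter, or whether the mouse numbers 1 to 4 within a genotype pair the mice, and they were not treated as pairs in the main fit.

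Immediate early genes are transcribed within minutes of a stimulus such as a growth factor, stress or mechanical strain, without new protein synthesis. MAP kinase signalling through the serum response factor SRF and its ternary complex partners acts on CArG boxes in many of their promoters, and cAMP signalling acts through the cAMP response element. Many of their mRNAs are short-lived, and tissue dissociation with enzymes at body temperature is known to induce them. EGR1, EGR2, EGR3, NR4A1 and KLF6 are transcription factors, DUSP1 is a phosphatase that inactivates MAP kinases, ZFP36 (tristetraprolin) binds AU-rich elements and promotes mRNA decay, BTG2 is an antiproliferative protein that promotes deadenylation, IER3 is a stress-inducible regulator of survival, and IER2 is a nuclear protein of less settled function.

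The promoter windows of 7 of the 10 genes were found in a RefSeq table of mouse assembly GRCm38.p6, each from 250 bases before to 50 bases after a start site (windows of Egr1, Egr3 and Ier2 were not used here). The CArG box, a cAMP response element spelled TGACGTCA, and an EGR site spelled GCGTGGGCG or GCGGGGGCG were searched on both strands, with no overlap between matches of different motifs in the members. The windows of Zfp36, Egr2 and Dusp1 are shown because Zfp36 had the largest genotype difference in size among the members, Dusp1 was one of the 2 members that differed between the sets of arrays described further on, and Egr2 holds the same kind of box as Zfp36. Each is printed in the direction of transcription, with the matched motifs in capitals. The Zfp36 window lies at chr7:28379179-28379478 on the minus strand, the Egr2 window, 1 of 5 for that gene, at chr10:67537619-67537918 on the plus strand, and the Dusp1 window at chr17:26508423-26508722 on the minus strand.
Zfp36: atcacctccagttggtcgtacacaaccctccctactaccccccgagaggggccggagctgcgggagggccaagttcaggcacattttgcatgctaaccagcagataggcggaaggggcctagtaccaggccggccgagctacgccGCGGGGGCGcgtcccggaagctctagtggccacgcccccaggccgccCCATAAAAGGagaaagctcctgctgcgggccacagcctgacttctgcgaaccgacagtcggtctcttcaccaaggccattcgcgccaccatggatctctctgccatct
Egr2: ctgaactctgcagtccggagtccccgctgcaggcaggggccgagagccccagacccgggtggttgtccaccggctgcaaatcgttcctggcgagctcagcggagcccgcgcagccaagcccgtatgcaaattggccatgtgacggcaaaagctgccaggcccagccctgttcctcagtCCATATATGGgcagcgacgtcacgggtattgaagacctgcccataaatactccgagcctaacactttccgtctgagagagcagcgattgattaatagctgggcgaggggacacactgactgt
Dusp1: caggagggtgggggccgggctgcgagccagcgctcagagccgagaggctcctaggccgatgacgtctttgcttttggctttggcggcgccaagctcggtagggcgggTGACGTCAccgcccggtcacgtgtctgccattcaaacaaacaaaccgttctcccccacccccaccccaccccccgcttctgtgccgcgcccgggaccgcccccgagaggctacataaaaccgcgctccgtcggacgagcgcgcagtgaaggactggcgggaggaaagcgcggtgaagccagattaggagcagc

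The Zfp36 window holds an EGR site at -105 to -97 and a CArG box at -58 to -49 relative to the start site. The Egr2 window holds a CArG box at -72 to -63, and the Dusp1 window a cAMP response element at -143 to -136. Beyond the windows shown, Btg2 had a cAMP response element at -166 to -159 and Nr4a1 an EGR site at -60 to -52. Each of the 3 motifs was thus found in 2 of 7 members. Over 27025 genes with windows of the same length, the CArG box was found in 1.81%, the cAMP response element in 2.03% and the EGR site in 3.93%. Over the 32851 windows of these genes the shares were 1.63%, 1.79% and 3.47%. Ier3 and Klf6 held none of these letters in their windows. A match describes letters, not a bound site, and no binding was measured here.

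Levels are given as normalised log2 signal, after each array's background was inferred from its detection p-values and removed by neqc in limma, which then equalises the quantiles of the arrays. Median raw signals ran from 65.71 to 163.9 and inferred backgrounds from 58.98 to 134.7, in 2 sets without overlap. Lower background was seen on 4 arrays, for mice 1 and 2 of the Cd151+/+ genotype and mice 3 and 4 of the Cd151-/- genotype. The 4 arrays of higher background held the remaining 2 mice of each genotype. The sets were read from the background and are not groups of the study. A probe was called detected on an array at a detection p-value of 0.05 or lower, which held for 11291 to 12359 probes per array, and 14967 probes detected on at least 1 array were tested. Because an array probe has its own binding strength, no gene's level was set against another's.

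Egr1, the transcription factor at the head of the EGR family, was detected in all 8 mice. Its normalised log2 signal in Cd151+/+ mice 1 to 4 was 11.93, 11.25, 12.59 and 13.00. In Cd151-/- mice 1 to 4 it was 12.51, 13.33, 10.74 and 9.476. The highest and the lowest of the 8 mice were both Cd151-/-, 14.4-fold apart, and the Cd151+/+ mice lay inside that range. The means were 12.19 ± 0.766 in Cd151+/+ and 11.51 ± 1.74 in Cd151-/- mice (SD, n = 4 each). The log2 difference, Cd151-/- minus Cd151+/+ here and throughout, was -0.68 (SE 0.726, 95% interval -2.28 to 0.92, limma adjusted p = 0.918), which is smaller than the spread between mice, and the two-sided exact permutation p was 0.514, where 4 mice against 4 allow no p below 0.0286.

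Dusp1, the phosphatase that switches off the MAP kinases that induce it, was detected in all 8 mice. The Cd151+/+ mice 1 to 4 had log2 signals of 12.60, 12.53, 13.77 and 13.21. The Cd151-/- mice 1 to 4 had 13.26, 13.77, 12.18 and 11.56. As for Egr1, mouse 2 was the highest and mouse 4 the lowest of the Cd151-/- mice, and the genotypes overlapped over most of their range. The means were 13.03 ± 0.581 and 12.69 ± 1.00, with a log2 difference of -0.34 (SE 0.466, 95% interval -1.36 to 0.69, limma adjusted p = 0.92, exact permutation p = 0.6).

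Zfp36, the mRNA decay factor, had the lowest log2 difference of the 6 tested members. Its log2 signals in Cd151+/+ mice 1 to 4 were 14.31, 14.23, 13.32 and 14.10. Those in Cd151-/- mice 1 to 4 were 12.97, 13.78, 13.38 and 11.87. Of the Cd151+/+ mice, 3 lay above every Cd151-/- mouse, while mouse 3 lay below Cd151-/- mice 2 and 3. The means were 13.99 ± 0.454 and 13.0 ± 0.823, a log2 difference of -0.99 (SE 0.392), or a 1.99-fold lower mean in Cd151-/- glomeruli, with a 95% interval from 1.09-fold to 3.62-fold. Its unadjusted limma p was 0.0282, but it did not pass adjustment over all probes (adjusted p = 0.918), and its exact permutation p was 0.0857. The unadjusted call was lost when any one of Cd151+/+ mouse 1, 2 or 4 or Cd151-/- mouse 4 was left out, with log2 differences between -1.27 and -0.61 over all 8 such fits.

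Ier3, the stress-inducible survival regulator, was the most even of the members detected on all arrays. The Cd151+/+ mice 1 to 4 had log2 signals of 13.57, 12.97, 12.76 and 13.15. The Cd151-/- mice 1 to 4 had 12.93, 13.11, 12.45 and 12.54. Only Cd151+/+ mouse 1 and mouse 4 lay above all Cd151-/- mice, and only Cd151-/- mice 3 and 4 lay below all Cd151+/+ mice. The means were 13.11 ± 0.343 and 12.76 ± 0.317, a log2 difference of -0.35 (SE 0.249, 95% interval -0.90 to 0.20, limma adjusted p = 0.918, exact permutation p = 0.171).

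The EGR relatives Egr2, which drives myelination and neural patterning, and Egr3, which acts in muscle spindles and lymphocytes, were measured close to the background. Egr2 was detected in 3 mice of each genotype, at log2 signals of 5.441, 5.650, 5.381 and 6.027 in Cd151+/+ mice 1 to 4 and of 5.302, 6.337, 6.178 and 5.052 in Cd151-/- mice 1 to 4. All values of Cd151+/+ mice lay within the range of the Cd151-/- mice. Egr3 was detected in 1 Cd151+/+ and 2 Cd151-/- mice, at log2 signals of 5.091, 4.732, 5.396 and 5.20 and of 5.617, 5.297, 4.919 and 5.292. The log2 differences were 0.09 for Egr2 (SE 0.315, 95% interval -0.60 to 0.79, limma adjusted p = 0.963) and 0.18 for Egr3 (SE 0.232, 95% interval -0.34 to 0.69, limma adjusted p = 0.92). Both signs turned when arrays were scaled to the 75th percentile, to -0.05 and -0.0044. That scaling also moved the median over all probes, from -0.0073 to -0.0709, with 59.3% of probes lower.

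Ier2, Nr4a1 and Btg2 were not detected in any of the 8 mice. Their lowest detection p-values were 0.293, 0.256 and 0.139. The raw signal over the array's inferred background ran from 0.892 to 1.04 for Ier2, from 0.877 to 1.06 for Nr4a1, the orphan nuclear receptor, and from 0.814 to 1.11 for Btg2. These 3 probes were not well above background in either genotype, so they give no level and no difference, and a probe may fail to bind a transcript that is there.

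Klf6, a zinc finger factor induced by injury, was read by 2 probes listed under Copeb, of which 1 was detected in all 8 mice and the other in none. The detected probe had log2 signals of 10.10, 10.09, 10.40 and 10.06 in Cd151+/+ mice 1 to 4. In Cd151-/- mice 1 to 4 it had 10.31, 10.80, 9.869 and 8.609. The Cd151+/+ mice were close together (10.16 ± 0.16) and the Cd151-/- mice spread to both sides of them (9.897 ± 0.94). The log2 difference was -0.26 (SE 0.396, 95% interval -1.14 to 0.61, limma adjusted p = 0.923).

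**Figure D1:**
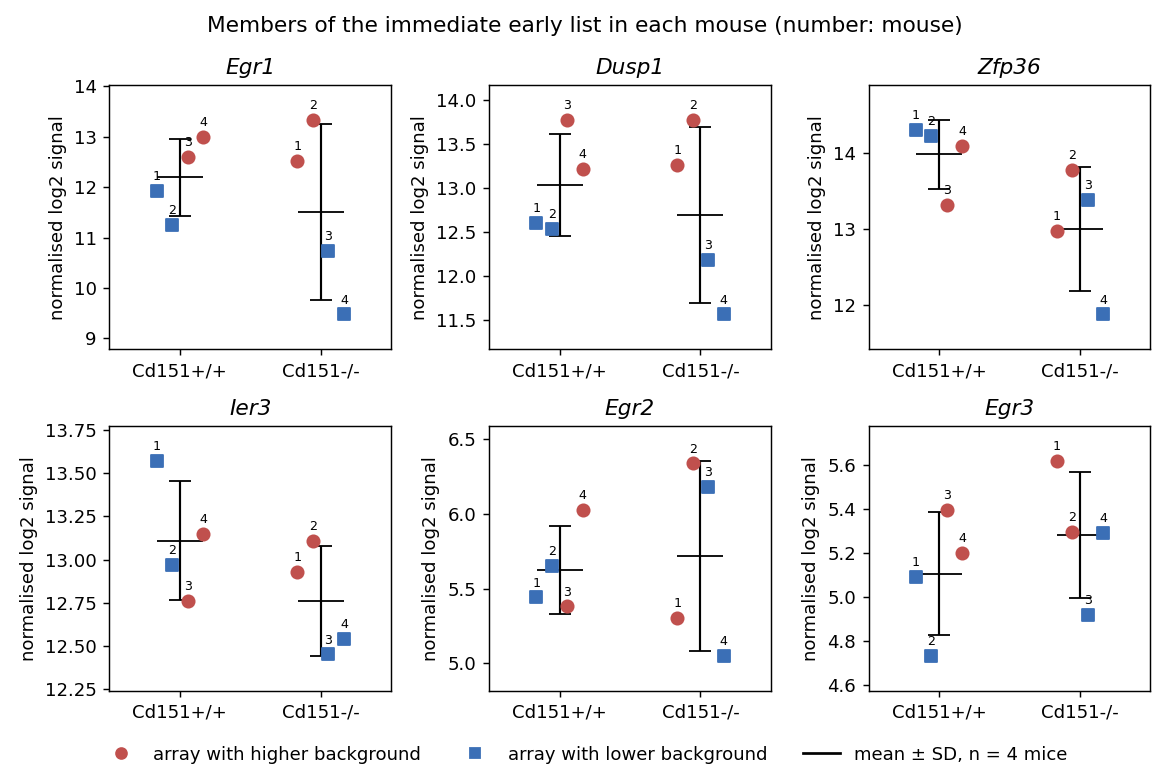
Normalised log2 signal of the 6 tested members in each mouse, by genotype, with the mean and SD of 4 mice and with circles for arrays of higher and squares for arrays of lower background. For Egr1 and Dusp1 every circle lies above every square, from 12.51 up for Egr1, while in no panel do the genotypes separate.

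Over the 6 tested members, 4 had a lower mean in Cd151-/- glomeruli, against 50.9% of all 14967 probes, and the median log2 difference was -0.35, against -0.0073 over all probes. The sign of that median was not stable: it ran from -0.592 to 0.02 when 1 mouse was left out, with 0.02 without Cd151-/- mouse 4, and was 0.192 with array weights. At an unadjusted limma p of 0.05, 1 member (Zfp36) was lower and 0 were higher, against 2.61% and 1.69% of all probes, and adding the Copeb probe changed neither count. After Benjamini-Hochberg adjustment with limma, 0 members were called, against 0.0334% of all probes (5 probes, 3 of them those of Cd151). With SAM, the permutation method for arrays that the study used, 91 probes were called at an FDR of 0.197, and 0 of them were members. For 0 of the 6 were the genotypes without overlap, against 2.31% of all probes. In bulk glomeruli, fewer cells of a type and less RNA per cell cannot be told apart.

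**Figure D2:**
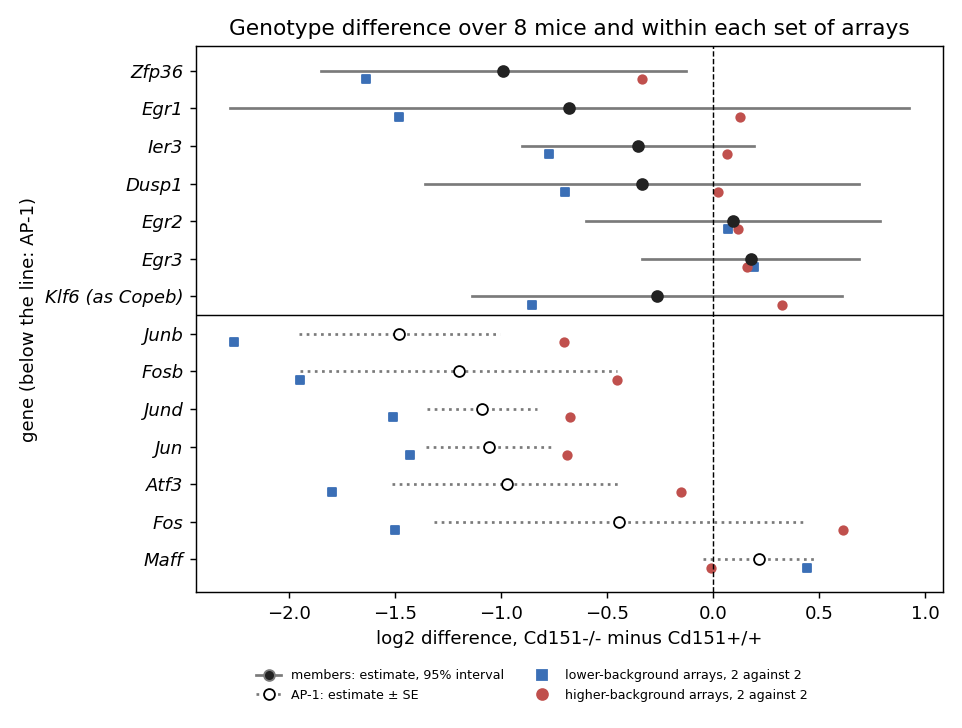
Log2 difference between genotypes for the tested members and Klf6 (95% interval) and, below the line, the AP-1 genes (± SE), with the difference within lower-background arrays (squares) and higher-background arrays (circles). The interval of Zfp36 lies below 0, from -1.85 to -0.13, and the intervals of the other members and Klf6 include 0.

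The spread between mice was large for several members. The residual SD within genotype was 1.34 for Egr1, larger than that of 99.8% of probes detected on all 8 arrays, whose median was 0.381. It was 0.82 for Dusp1 (larger than 93.8%), 0.664 for Zfp36 (86.7%) and 0.33 for Ier3 (38.1%). In fold terms, the 8 mice spanned 14.4-fold for Egr1, 5.43-fold for Zfp36, 4.63-fold for Dusp1, 2.18-fold for Ier3 and 4.57-fold for the Copeb probe. The 4 Cd151+/+ mice spanned 3.35-fold for Egr1.

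**Figure D3:**
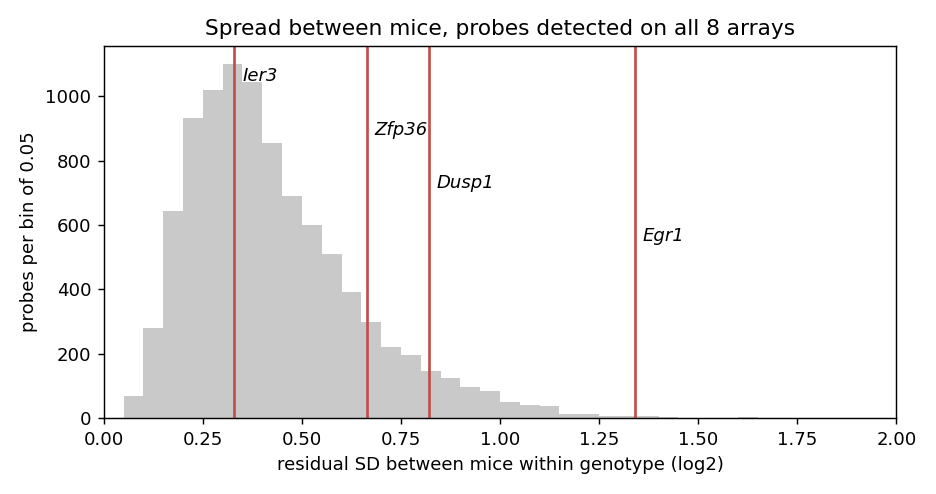
Residual SD between mice within genotype (log2) of probes detected on all 8 arrays, counted in bins of 0.05, with the 4 members of that kind marked. Egr1 at 1.34 lies in the far tail of the histogram, and Ier3 at 0.33 lies near its centre.

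The members' order of mice was not the same. Averaged over the 4 members detected on all arrays, the mean log2 deviation from the gene's mean over 8 mice was highest in Cd151-/- mouse 2 (0.71) and lowest in Cd151-/- mouse 4 (-1.42), with Cd151-/- mouse 3 at -0.60 and the other mice between -0.04 and 0.58. Cd151-/- mouse 4 was the lowest of the 8 for 3 of the 4 members, the exception being Ier3, where mouse 3 was lowest. Cd151-/- mouse 2 was the highest Cd151-/- mouse for 4 of 4. Cd151+/+ mouse 1 was the highest of the 8 for Zfp36 and Ier3 and ranked below 4 mice for Egr1.

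**Figure D4:**
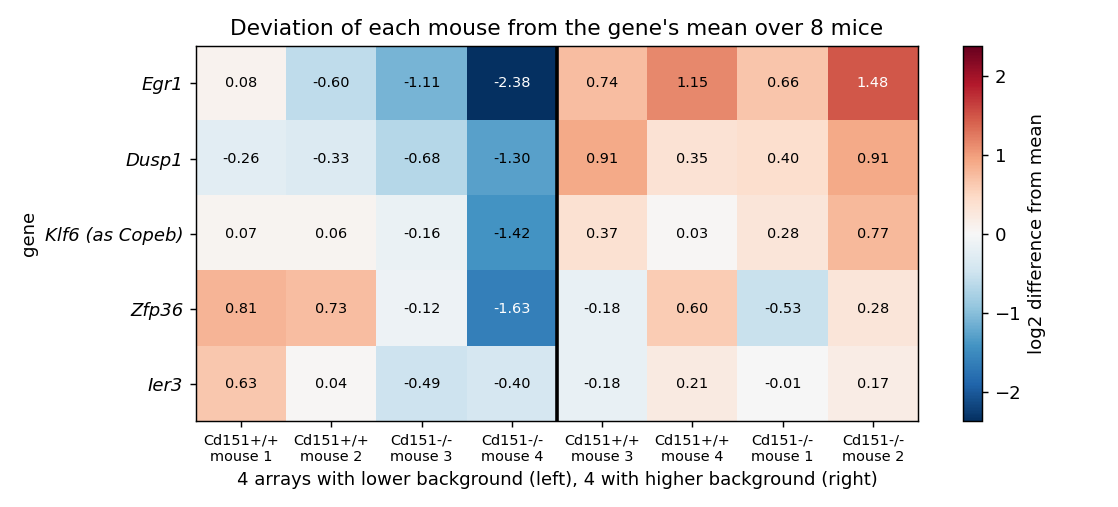
Log2 deviation of each mouse from the gene's mean over 8 mice for the members detected on all arrays and the detected Klf6 probe, with lower-background arrays on the left of the line and higher-background arrays on the right. Egr1 runs from -2.38 in Cd151-/- mouse 4 to 1.48 in Cd151-/- mouse 2. The higher-background side is all positive for Egr1, Dusp1 and Klf6 but mixed for Zfp36 and Ier3.

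Egr1 and Dusp1 differed between the arrays of higher and lower background. With genotype in the fit, the log2 difference of higher-background minus lower-background arrays was 2.01 for Egr1 (SE 0.402, limma adjusted p = 0.00806) and 1.28 for Dusp1 (SE 0.241, limma adjusted p = 0.0062). The 4 higher-background arrays averaged 12.86 ± 0.379 for Egr1 and 13.5 ± 0.308 for Dusp1, and the 4 others 10.85 ± 1.04 and 12.22 ± 0.476 (SD, n = 4 each). These 2 of 6 members passed at an adjusted p of 0.05, against 13.2% of all probes, and the sets did not overlap for the same 2, against 13.6% of all probes. The other 4 tested members did not pass: Egr3 differed by 0.37 (adjusted p = 0.148), Egr2 by 0.18 (0.681), Ier3 by 0.11 (0.753) and Zfp36 by 0.10 (0.875), and the Copeb probe by 0.73 (0.129). The differences of Egr1 and Dusp1 passed in all 8 fits that left out 1 mouse, at 1.59 to 2.30 and 1.08 to 1.46. The sets were also without overlap in 2 other array measures. At most 11381 probes were detected on a lower-background array and at least 11800 on a higher-background array. The median signal of detected probes over background was at most 3.368 on lower-background and at least 3.454 on higher-background arrays. What set the arrays apart is not given in the labels. The part of these array measures, or of any other difference between the sets, in the values of Egr1 and Dusp1 was not tested.

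With the set of arrays in the fit, the residual SD of Egr1 was 0.74 in place of 1.34 and that of Dusp1 0.384 in place of 0.82, while those of Zfp36 (0.725) and Ier3 (0.355) were not smaller than without it. The limma adjusted p for genotype was then 0.512 for Egr1, 0.573 for Dusp1, 0.539 for Ier3 and 0.417 for Zfp36, whose unadjusted p was 0.0316. Each set holds 2 mice of each genotype, so the genotype difference can be read in both. On lower-background arrays it was -1.64 for Zfp36, -1.48 for Egr1, -0.77 for Ier3 and -0.70 for Dusp1. On higher-background arrays it was -0.34, 0.12, 0.07 and 0.02. The 4 differences were thus all negative in the set that holds Cd151-/- mouse 4, and in the other that of Zfp36 alone was below 0. The interaction had an unadjusted limma p of 0.0361 for Egr1 (log2 1.61), 0.062 for Ier3 (0.84), 0.0982 for Zfp36 (1.31) and 0.145 for Dusp1 (0.72), with an adjusted p of 0.977 for each. Over all probes, 3.51% had an unadjusted interaction p of 0.05 or lower and 0% passed adjustment.

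Without Cd151-/- mouse 4, the log2 difference between genotypes was 0.00066 for Egr1 and 0.04 for Dusp1, and 2 of the 6 members were then lower in Cd151-/- mice. That mouse was also at the end of the range for several lists of marker genes, in some of them close to the next mouse. Its summed signal was the lowest of the 8 mice for 4 tested podocyte markers (11740, others 19409 to 26343) and for 8 endothelial markers (22854, others 24940 to 44405), and the highest for 9 tested proximal tubule markers (72389, others 19954 to 65801). It was also the lowest for 7 tested markers of the loop, distal tubule and collecting duct (15213, others 22198 to 44239) and for 6 tested markers of mesangium and smooth muscle (16505, others 17254 to 27926). The 4 podocyte markers, Wt1, Podxl, Ptpro and Tcf21, were detected on all 8 arrays, and Nphs1 and Synpo were not among the probes tested. Between genotypes, 0 of the 4 podocyte and 0 of the 8 endothelial markers passed an unadjusted limma p of 0.05. Of the 9 proximal tubule markers 2 did, both higher, as did 2 of 4 erythroid markers and 1 of 6 markers of mesangium and smooth muscle, all lower. Of the 7 distal and the 7 leukocyte markers, 0 passed. Over all probes, 2.61% were lower and 1.69% higher at that p. No marker of these lists passed adjustment. The 4 tested erythroid markers summed to 37426 to 49566 in Cd151+/+ and 17558 to 37213 in Cd151-/- mice, the only list whose sums did not overlap. Leukocyte markers, 7 tested, summed to 1493 to 4006 in Cd151+/+ and 1923 to 4173 in Cd151-/- mice, and to 1493 to 2046 on lower-background against 2538 to 4173 on higher-background arrays. The part of these cell markers in the members' values was not tested.

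Around the members, 94 genes of the same response were listed, of which 74 were tested. Of these, 42 were lower and 32 higher in Cd151-/- glomeruli, 6 were lower and 0 higher at an unadjusted limma p of 0.05, 0 passed adjustment, and 1 did not overlap between genotypes. Over all probes the shares were 2.61% lower and 1.69% higher at that p and 2.31% without overlap. A lower mean was found for 50.9% of all probes, a share that also stands beside such counts in the lists that follow. The AP-1 transcription factors, which bind DNA as dimers, had 6 of 7 genes lower and a median log2 difference of -1.06. Junb was at -1.48 with a limma adjusted p = 0.918 (0.00943 unadjusted), Jund, listed as Jund1, at -1.09 with a limma adjusted p = 0.905 (0.00143 unadjusted) and Jun at -1.06 with a limma adjusted p = 0.918 (0.00453 unadjusted). Jund, at 8.43 to 9.038 in Cd151+/+ and 7.228 to 8.255 in Cd151-/- mice, was the gene without overlap. Fosb (-1.20), Atf3 (-0.97), Fos (-0.45) and Maff (0.22, the AP-1 gene with a higher mean, detected in 1 mouse) did not pass at an unadjusted p of 0.05.

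Between the sets of arrays, Fos was 2.44 higher on higher-background arrays on the log2 scale (limma adjusted p = 0.00722) and Fosb 2.01 (adjusted p = 0.0123), beside 2.01 for Egr1. Jun (-0.30), Junb (0.08) and Jund (0.09) did not pass, beside 0.10 for Zfp36. The genotype differences of Jun, Junb and Jund had the same sign in both sets of arrays: -1.43, -2.26 and -1.51 on lower-background and -0.69, -0.70 and -0.68 on higher-background arrays. Fosb (-1.95 and -0.453) and Atf3 (-1.8 and -0.15) kept their sign as well. Fos (-1.5 and 0.613) and Maff (0.443 and -0.00876) did not.

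**Figure D5:**
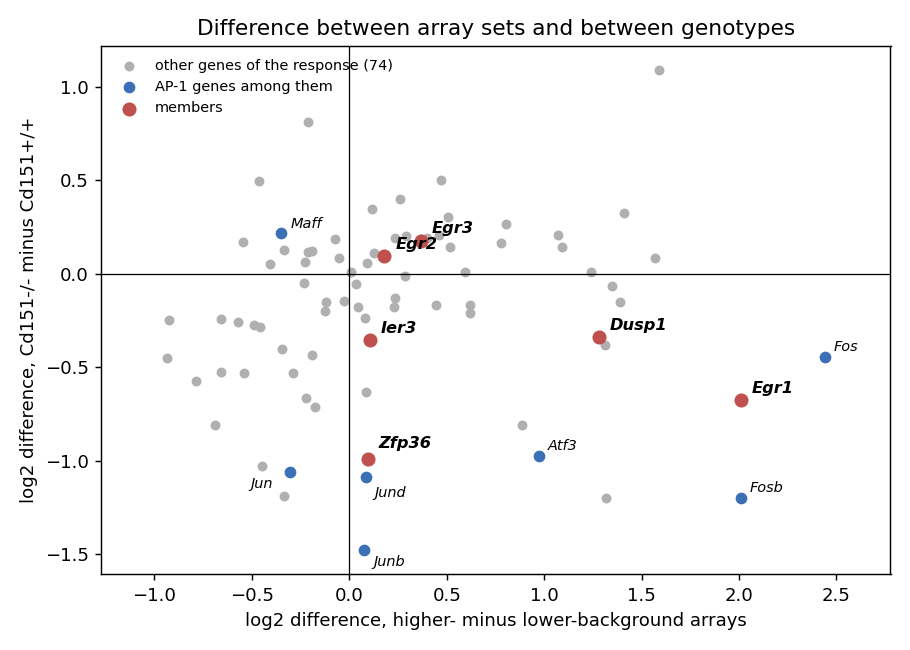
Log2 difference between higher- and lower-background arrays (horizontal) and between genotypes (vertical) for the 6 tested members and 74 related genes. Egr1 and Dusp1 lie to the right with Fos and Fosb, and Zfp36 lies low near the vertical axis with Jund and Junb.

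Among 29 other tested immediate early genes, 3 were lower at an unadjusted limma p of 0.05: the clock gene Per1 (-1.19, adjusted p = 0.918), Ppp1r15a (-1.03, adjusted p = 0.918), which directs dephosphorylation of eIF2 alpha, and the bZIP factor Cebpb (-0.67, adjusted p = 0.918). Of the same 29, 8 were higher on higher-background arrays after adjustment, against 13.2% of all probes, a share that also stands beside the counts between sets in the lists that follow. Among the 8 were Gadd45g, a stress sensor (1.57, adjusted p = 0.00281), and Mcl1, an anti-apoptotic protein (1.41, adjusted p = 0.00208). Of 9 tested DUSP phosphatases, relatives of Dusp1, 0 were higher on higher-background arrays after adjustment, and 2 were lower and 7 higher in Cd151-/- mice, at -0.13 to 0.35, with 0 past an unadjusted limma p of 0.05. Of 5 tested relatives of Zfp36 and Btg2, 4 were lower, from -0.57 (Tob2) to -0.05 (Btg3), and 0 had an unadjusted limma p of 0.05 or lower. Of 17 upstream regulators and EGR co-repressors, 0 passed between genotypes, and 2 were higher on higher-background arrays: Srf, whose protein binds CArG boxes (1.09, limma adjusted p = 0.00609), and Nab1, a co-repressor of EGR proteins (1.07, adjusted p = 0.0102). Of 7 heat shock chaperones, 0 passed between genotypes at an unadjusted p and 2 were higher on higher-background arrays.

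Over 9404 probes, the genes most like the mean profile of the 4 members detected on all arrays were Sertad1, a transcriptional regulator (Pearson r = 0.974 over 8 mice), the probe listed as AW548124, now Pkdcc, a secreted tyrosine kinase (0.973), the probe listed as C330027I04Rik, now Nt5c3b (0.973), and that listed as 2410081M15Rik, now Zbtb8a (0.972). Smarcd3, a chromatin remodelling subunit (0.966), Frk, a tyrosine kinase (0.964), Hs3st3a1, a heparan sulphate sulfotransferase (0.962), and the probe listed as 5430400N05Rik, now Zfp710 (0.96), came next. These correlations describe 8 mice that share arrays, backgrounds and the low value of Cd151-/- mouse 4. Sertad1 ran from 8.472 to 10.15 on the log2 scale, with a genotype difference of -0.58 (limma adjusted p = 0.918) and a difference of 0.60 between the sets of arrays.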

How the data were processed

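Glomerular RNA of 4 Cd151+/+ and 4 Cd151-/- mice was amplified, biotin-labelled and read on Illumina MouseRef-8 v1.1 arrays. The authors deposited the signal intensity of each probe, neither background-subtracted nor normalised, and deposited beside it a detection p-value, which ranks the probe among the negative controls of its array. Groups were taken from the labels. In R 4.3.3, limma 3.58.1 was used for neqc (offset 16), lmFit and eBayes, with Benjamini-Hochberg adjustment over the 14967 probes that 1 or more arrays detected (limit 0.05). SAM used all 70 relabelings and a limit of 0.2 on the FDR. Where a gene had several probes, that with the highest mean was used for the related lists. Members, related genes, marker lists and the sets of arrays were chosen with earlier results of these data known, and the members were named by symbol. Named related genes are those past an unadjusted p and those of the AP-1 list, and the 8 genes most correlated with the members. Gadd45g, Mcl1, Srf, Nab1, Tob2 and Btg3 were chosen after their values were seen. The result of 1 marker gene is not reported here and is not in the sums.

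Alternatives were deposited signals without background correction, a cubic spline on 15 quantiles, 75th percentile scaling, an offset of 50, other detection filters, the mouse number or the set of arrays as a block, a trended variance, array weights and each mouse left out. In data simulated for the comparison of genotypes, 200 probes out of 14967 were shifted by 2 log2 units. Of these, limma called 80.5%, and 3.01% of its calls were unchanged probes. That shift was larger than the genotype difference of any member. The simulated noise was independent between probes, without the sets of arrays, so the share called does not apply to differences of the members' size. Signal over background was 2.999 to 4.46 at the median of detected probes, and 8 arrays limit the precision.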

Additional observations from a re-analysis of the deposited data

Results flagged for a closer look

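The detected probe of Klf6, listed as Copeb, had 1 value far from the others of its genotype: Cd151+/+ mouse 3 was the highest at 10.4 on the log2 scale, with the nearest mouse at 10.1. The gap was 0.897 of the range of that genotype, above Dixon's critical value for 4 samples. Of 14 groups of 4 mice checked, 1 stood out in this way, and chance gives about 1 in 20. The range of these 4 mice is narrow (10.16 ± 0.16).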

How the results depend on the processing

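Over 18 other settings, 98 of 106 genotype differences of the 6 members kept their direction and 8 reversed, and none passed adjustment in any setting. The unadjusted call of Zfp36 was lost in 4 of the 8 fits that left out 1 mouse. Scaling to the 75th percentile gave Egr2 -0.0463 and Egr3 -0.0044 between genotypes, where the median over all probes was -0.0709. It gave Ier3 -0.122 and Zfp36 -0.0982 for higher minus lower background. Array weights gave Dusp1 0.34 and Egr1 0.397, with 2 of 6 members lower, against 51.4% of all probes. They gave 28 related genes past an unadjusted p, against 6 in the main fit. The set of arrays as a block gave 14 such genes. The counts over all probes rose as well at an unadjusted limma p of 0.05. In the main fit 390 were lower and 253 higher, with the set blocked 910 and 780, and with array weights 2480 and 2336. Leaving out 1 mouse gave 0 to 1 members past an unadjusted p, 2 to 5 members lower, and 4 to 12 related genes past an unadjusted p. Of all probes, 50.2% to 52.8% had a lower mean in those fits. At an unadjusted limma p of 0.05, 195 to 763 probes were lower and 122 to 628 higher. In the same fits the genotype difference ran from -1.29 to 0.00066 for Egr1, from -0.708 to 0.0394 for Dusp1 and from -0.102 to 0.32 for Egr2 (-0.068 without Cd151-/- mouse 3), and the difference between sets from -0.0144 to 0.311 for Ier3 and from -0.335 to 0.38 for Zfp36 (-0.201 without Cd151-/- mouse 2). The cause was not tested. The lower mean of Zfp36 (-1.27 to -0.61) and of Ier3 (-0.476 to -0.201) kept its sign in every setting.

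The deviations of mice with the same number had correlations from -0.583 to -0.00856. For every mouse number, the arrays of the genotypes fell in opposite sets, of higher and of lower background. A difference between the sets would lower these correlations whether or not the mice were paired. They therefore cannot decide whether the number pairs the mice. With the replicate block, 0 members passed adjustment and 1 (Zfp36) an unadjusted limma p of 0.05, as without it. Over all probes, 215 were lower and 205 higher at an unadjusted p with the replicate block, and 390 and 253 without it.

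With 4 mice per genotype, the interval of Egr1 (-2.28 to 0.92) holds sizeable differences in either direction, and probes near the background give little for Egr2 and Egr3.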
